A study of Mus musculus with 11 samples.

Results

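Interferon-stimulated genes and interferon-inducible GTPases were described in dendritic cells sorted from mouse spleen. The genes are 45 listed interferon response genes, taken by name and not by any value measured here, and 39 of them were measured among 22180 genes in all. A gene counted as measured when at least 1 probeset of the array named it and no other gene. Of the remaining 6, Ifi44 was not named by a probeset here, and Ifi27l2a, Oas1a, Gbp2, Tgtp1 and Ifi47 lay only on probesets that name several related genes, so no value is given for them.

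The study asked how the transcriptome of dendritic cells differs after exposure to a Myc-driven B cell lymphoma. Conventional dendritic cells, sorted as CD11c+ and MHC class II+, came from spleens of naive C57BL/6 mice (6 arrays) and of C57BL/6 mice that had received Eµ-Myc lymphoma cells (5 arrays). Eµ-Myc is a transgene that drives the oncogene Myc from an immunoglobulin heavy-chain enhancer in B cells, and the transferred cells made up 10 to 36% of lymphocytes on average in the spleens used. Purity after sorting was above 95%, per the labels. The dendritic cells themselves carried no named genetic change in either group, and both groups share the sort. Whether each array had a mouse of its own is not in the labels, so p-values measure only the spread between these 11 samples. Exposed arrays are called by the number in their titles, 1, 2, 3, 4 and 6; the array titled 6 carries the number 5 in another label field. All levels are log2 expression, 1 unit of which is a doubling, and all differences are exposed minus naive on that scale.

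Type I interferons bind a receptor that activates the kinases Jak1 and Tyk2, and transcription factors, among them Stat2 and Irf9, then bind a DNA element called ISRE in the promoters of their target genes. Interferon gamma acts through its own receptor, and its targets carry another element called GAS. The targets include sensors of viral RNA, enzymes and effectors that block viral replication, the ubiquitin-like modifier Isg15, and 2 families of GTPases, the immunity-related GTPases (IRG) and the guanylate-binding proteins (GBP), which attack the vacuoles of intracellular parasites and bacteria. Dendritic cells both sense nucleic acids to make interferon and respond to it, and the response is known to support cross-presentation of tumour antigens.

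Promoter windows of 6 of these genes show what the elements look like in place: Isg15, Ifit1 and Rsad2 with ISRE matches, and 3 of the 4 GTPases that held an ISRE and a GAS match. Each line gives the 200 bases before the start of the gene, 5′ to 3′ on the gene's own strand, from RefSeq's annotation of GRCm38.p6. The windows lie at chr4:156200819-156201018 for Isg15 and chr12:26456453-26456652 for Rsad2, both on the minus strand. Those on the plus strand lie at chr19:34640689-34640888 for Ifit1, chr3:142496734-142496933 for Gbp5, chr11:58199356-58199555 for Igtp and chr11:58214777-58214976 for Irgm2. Capitals mark matches to the ISRE letters GAAANNGAAA on either strand and to the GAS letters TTCNNNGAA, which read the same on both strands.
Isg15: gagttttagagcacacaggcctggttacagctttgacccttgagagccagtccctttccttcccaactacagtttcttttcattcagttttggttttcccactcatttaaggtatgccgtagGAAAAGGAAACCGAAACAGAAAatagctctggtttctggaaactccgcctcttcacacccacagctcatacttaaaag
Ifit1: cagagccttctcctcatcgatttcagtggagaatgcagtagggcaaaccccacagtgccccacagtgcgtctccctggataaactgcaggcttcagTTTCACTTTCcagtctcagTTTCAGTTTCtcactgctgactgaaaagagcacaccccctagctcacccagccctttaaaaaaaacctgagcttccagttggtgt
Rsad2: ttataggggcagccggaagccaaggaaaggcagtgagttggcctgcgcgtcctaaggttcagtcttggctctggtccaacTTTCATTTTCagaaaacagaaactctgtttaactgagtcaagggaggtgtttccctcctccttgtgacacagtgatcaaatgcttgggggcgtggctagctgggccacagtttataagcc
Gbp5: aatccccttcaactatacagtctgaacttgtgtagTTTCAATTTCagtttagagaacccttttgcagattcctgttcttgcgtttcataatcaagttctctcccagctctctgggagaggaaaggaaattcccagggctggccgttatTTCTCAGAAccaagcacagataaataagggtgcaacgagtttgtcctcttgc
Igtp: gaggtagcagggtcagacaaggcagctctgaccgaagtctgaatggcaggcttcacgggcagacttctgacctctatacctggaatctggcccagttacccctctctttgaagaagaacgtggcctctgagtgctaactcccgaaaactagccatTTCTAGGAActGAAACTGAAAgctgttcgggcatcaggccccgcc
Irgm2: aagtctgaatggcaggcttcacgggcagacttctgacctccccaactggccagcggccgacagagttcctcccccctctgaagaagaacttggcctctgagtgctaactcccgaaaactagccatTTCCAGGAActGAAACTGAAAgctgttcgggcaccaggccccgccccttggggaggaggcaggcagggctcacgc
In Isg15, 3 overlapping ISRE matches ran together, and Ifit1 held 2 separate ones. Igtp and Irgm2, neighbouring genes of the IRG family, held their GAS and ISRE matches side by side. The ISRE matches had the same letters (GAAACTGAAA), and the GAS matches differed (TTCTAGGAA in Igtp, TTCCAGGAA in Irgm2). The longest run of identical bases in the windows of these 2 genes, 40 bases, lay upstream of the matches. The windows of Igtp and Irgm2 were identical at 118 of 170 bases when lined up without gaps on the GAS match (69.4%). In that line-up the run of 40 bases was out of register, so its bases did not face each other.

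A promoter entry was found by symbol for 28 of the 39 measured genes, as 35 windows of 300 bases (250 before and 50 after the start). An ISRE match lay in 17 of the 35 windows (48.57%), against 3.44% of all 32851 promoter windows in the table. A GAS match lay in 8 of 35 (22.86%), against 8.3% of all windows. Among the GTPases, 6 of 6 genes with an entry held an ISRE match and 4 held both elements (Gbp5, Gbp7, Igtp and Irgm2), while 0 of the other 22 genes held both. A match describes letters in the window and does not show that a factor binds there.

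No interferon-stimulated gene passed the test between exposed and naive cells. The largest differences were higher levels of Iigp1 (0.64), Rsad2 (0.49), Gbp5 (0.44), Oasl1 (0.38) and Gbp3 (0.33), and the lowest were Oas2 (-0.25), Gbp6 (-0.23), Stat2 (-0.19) and Ddx60 (-0.18). By limma with Benjamini-Hochberg adjustment, 0 of 39 genes rose and 0 fell at an adjusted p under 0.05, where 1.42% of all tested genes changed (0.879% rose and 0.546% fell). The smallest adjusted p was 0.084, for Gbp5. At an unadjusted p under 0.05 there were 5 of 39 (Rsad2, Oasl1, Iigp1, Gbp3 and Gbp5, all higher in exposed cells), where 12.2% of all genes reached that mark. Of the 39 differences 26 were positive and 13 negative, with a median of 0.06 beside 0.01 over all genes. Without exposed array 2 the median was -0.02 and 17 were positive, so the sign of the median rests on that array. The 95% limits of the differences from limma reached from -0.56 at the lowest (Gbp6) to 1.07 at the highest (Iigp1), and a missed threshold does not show that levels were equal. The 2 groups overlapped for every one of the 39 genes, whereas 2.29% of all genes had the groups fully apart. In bulk samples, fewer cells of a type and less RNA per cell cannot be told apart.

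**Figure D1:**
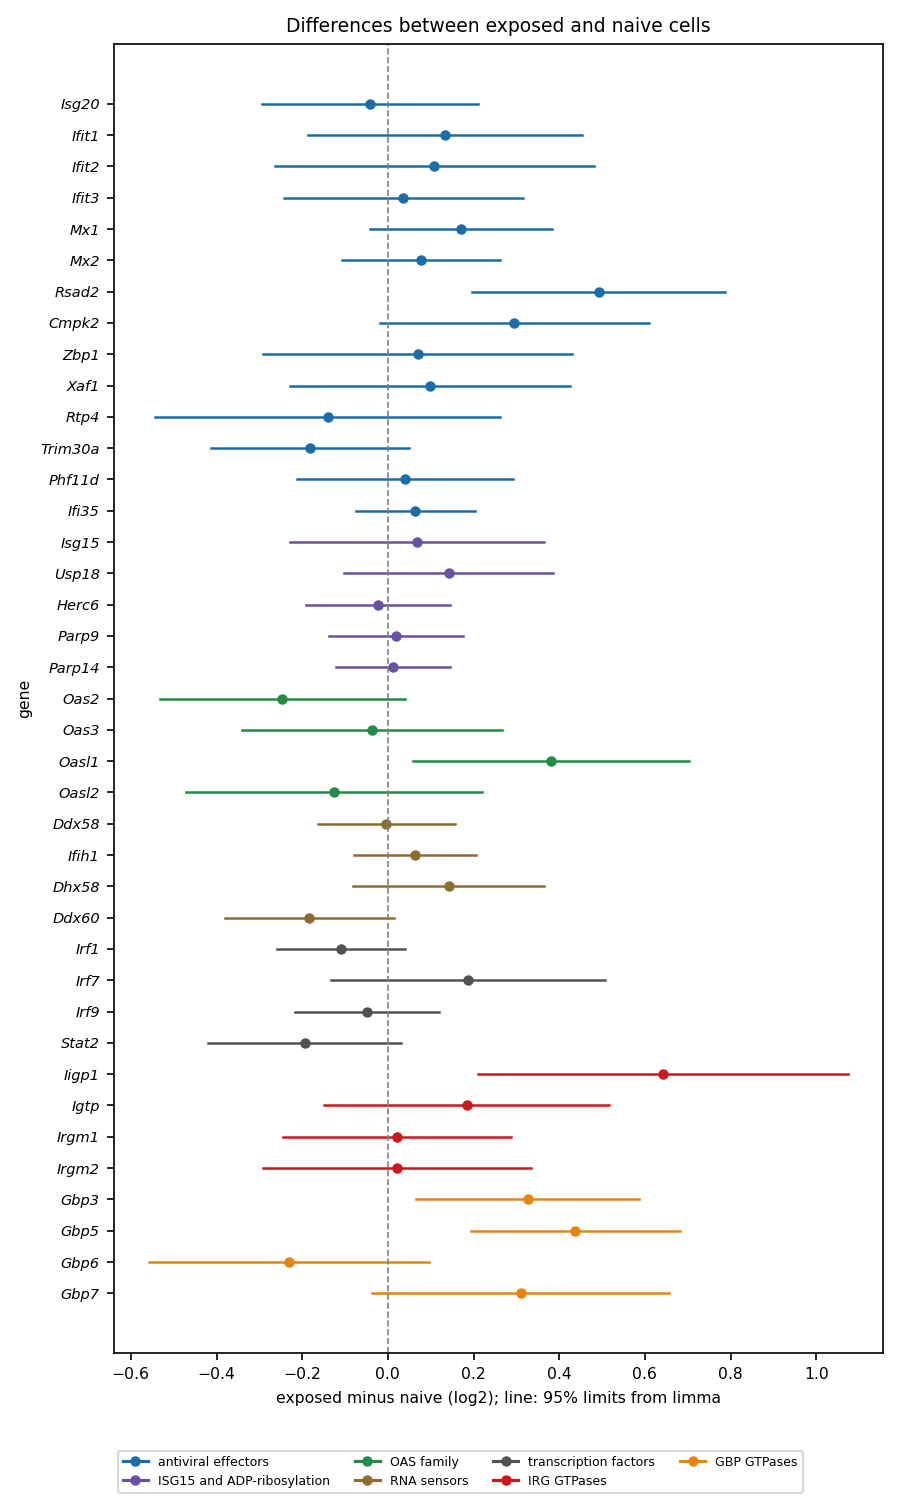
Difference in log2 expression (x axis, exposed minus naive) for each of the 39 measured genes (y axis), with 95% limits from limma as lines and colours for the role groups. The limits of Rsad2, Oasl1, Iigp1, Gbp3 and Gbp5 lie above 0, and those of the other 34 genes include 0.

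Of the 4 transcription factors, 0 passed the test. Stat2, the partner of Irf9 in the ISRE-binding complex, had the largest difference of the group, at -0.19 (95% limits -0.42 to 0.03, adjusted p = 0.506). Its naive arrays lay at 10.03, 10.20 and 10.42 (lowest, median and highest), and exposed arrays 1, 2, 3, 4 and 6 at 9.99, 10.15, 9.63, 10.17 and 10.20. Exposed arrays 1 and 3 lay below every naive array and the other 3 within the naive range. Irf7, which drives production of type I interferon, lay at 10.26, 10.40 and 10.52 in naive arrays and at 10.98, 10.99, 10.00, 10.52 and 10.36 in exposed arrays 1, 2, 3, 4 and 6. Here exposed arrays 1 and 2 stood above all naive arrays by a wide margin and array 3 below them, so a mean difference of 0.19 (95% limits -0.13 to 0.51, adjusted p = 0.695) joined arrays on both sides of the naive range. Irf1, a factor strongly induced by interferon gamma, differed by -0.11 and Irf9 by -0.05, with exposed and naive arrays overlapping for both.

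The 4 sensors of viral RNA gave differences from -0.18 to 0.14, and 0 passed the test. Ddx60, an interferon-induced helicase, had the largest: naive arrays lay at 7.22, 7.41 and 7.60 (lowest, median and highest) and the exposed arrays, in order, at 7.39, 7.39, 7.01, 7.03 and 7.34. Exposed arrays 3 and 4 lay below all naive arrays, and the difference was -0.18 ± 0.09 (SE; adjusted p = 0.457). Ddx58, which encodes the RNA sensor RIG-I, averaged 8.80 ± 0.05 (SD, n = 6) on naive and 8.79 ± 0.18 (SD, n = 5) on exposed arrays. Its exposed array 2 was the highest of the 11 arrays and arrays 3, 4 and 6 lay below all naive ones. Ifih1, which encodes the sensor MDA5, differed by 0.06 and Dhx58, the regulator of both sensors, by 0.14.

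Among the 14 antiviral effectors Rsad2 had the largest difference, and 0 passed the test. It encodes viperin, an enzyme whose product blocks viral polymerases. Naive arrays lay at 7.44, 7.82 and 7.94 (lowest, median and highest), and exposed arrays 1, 2, 3, 4 and 6 at 8.56, 8.32, 8.46, 8.13 and 7.71. Exposed arrays 1 to 4 lay above every naive array and array 6 within their range. Rsad2 was 1.41-fold higher (0.49 ± 0.14, SE; 95% limits 0.20 to 0.79; adjusted p = 0.109), and leaving out exposed array 6 gave 0.62 (adjusted p = 0.0132), past the threshold. Leaving out exposed array 2 gave 0.47 (adjusted p = 0.25), and Rsad2 passed in 1 of 25 alternatives. Within titles 1 to 3 the difference was 0.84 and within 4 to 6 it was 0.04. The interaction of group with this number set had an unadjusted p of 0.000756 and an adjusted p of 0.992, so it did not pass over all genes. Cmpk2, a mitochondrial nucleotide kinase encoded beside Rsad2, differed by 0.30 (adjusted p = 0.452), with exposed arrays 1 and 2 at 8.35 and 8.27 above all naive arrays and the other 3 within the naive range.

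The remaining 12 effectors differed by -0.18 (Trim30a) to 0.17 (Mx1), and 0 reached an unadjusted p under 0.05. Ifit1, Ifit2 and Ifit3, which bind foreign RNA, differed by 0.13, 0.11 and 0.04. Mx1 and Mx2, dynamin-like GTPases that trap viral nucleocapsids, differed by 0.17 and 0.08, and Isg20, an RNA exonuclease, by -0.04. For several of them the arrays of the exposed group parted to both sides. Rtp4, a chaperone of membrane receptors, lay at 8.81, 9.01 and 9.10 in naive arrays and at 9.31, 9.49, 8.28, 8.41 and 8.75 in exposed arrays 1, 2, 3, 4 and 6. Arrays 1 and 2 lay above the whole naive range and arrays 3, 4 and 6 below it, with 0 exposed arrays inside. Zbp1, a sensor of Z-form nucleic acids that can trigger cell death, lay at 9.38, 9.61 and 9.64 in naive and at 9.90, 10.29, 9.18, 9.17 and 9.62 in exposed arrays. Again arrays 1 and 2 were the highest of all and arrays 3 and 4 the lowest. Xaf1, a pro-apoptotic protein, lay at 8.60, 8.66 and 8.81 in naive and at 9.02, 9.42, 8.36, 8.61 and 8.51 in exposed arrays. Its exposed array 2 was the highest of all 11 and array 3 the lowest.

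The ISG15 and ADP-ribosylation group had 0 of 5 genes past the test. Usp18, the protease that removes Isg15 from proteins and dampens the type I receptor, had the largest difference, 0.14 (95% limits -0.10 to 0.39, adjusted p = 0.696). Its naive arrays lay at 9.72, 10.15 and 10.38 and its exposed arrays at 10.46, 10.36, 10.00, 10.16 and 10.16, with array 1 alone above the naive range. Isg15 lay at 8.54, 8.65 and 8.92 in naive and at 9.20, 9.10, 8.45, 8.44 and 8.60 in exposed arrays 1, 2, 3, 4 and 6. Exposed arrays 1 and 2 were above all naive arrays, arrays 3 and 4 below, and array 6 inside the range, for a mean difference of 0.07 (95% limits -0.23 to 0.37). Parp14, an ADP-ribosyltransferase, was nearly constant in naive arrays, at 9.80, 9.82 and 9.85, and lay at 9.98, 9.97, 9.62, 9.79 and 9.82 in exposed arrays. Herc6, the ligase that attaches Isg15, differed by -0.02 and Parp9 by 0.02.

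The 4 measured members of the OAS family, whose synthases make an RNA-like messenger that activates RNase L, had differences of both signs, and 0 passed the test. Oasl1, a relative without that synthase activity that restrains translation of Irf7, was higher by 0.38 ± 0.15 (SE; 95% limits 0.06 to 0.70; adjusted p = 0.3). Naive arrays lay at 7.49, 7.80 and 8.09 and exposed arrays 1, 2, 3, 4 and 6 at 8.62, 8.41, 8.05, 8.04 and 7.69. Only exposed arrays 1 and 2 exceeded the naive range. Oas2 was lower by 0.25 on the log2 scale (95% limits -0.53 to 0.04, adjusted p = 0.505), with naive arrays at 9.07, 9.34 and 9.82 and exposed arrays at 9.15, 9.58, 8.99, 8.92 and 8.98. Exposed arrays 3, 4 and 6 lay below all naive arrays. Oas3 and Oasl2 differed by -0.04 and -0.12.

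Of the 8 measured GTPases among the listed 45 genes 7 had a positive difference, with a median of 0.25, and 0 passed the test. The 5 further GBPs measured on the pathway lists, Gbp4 (-0.17), Gbp8 (-0.28), Gbp9 (-0.24), Gbp10 (-0.14) and Gbp11 (-0.09), all had negative differences and 0 passed. Over all 9 measured GBPs 3 differences were positive and 6 negative, with a median of -0.14, and over the 13 measured IRG and GBP GTPases 7 were positive with a median of 0.02. The median over the other 31 listed genes was 0.04. Iigp1, an IRG protein that coats and disrupts the vacuole of Toxoplasma, lay at 6.08, 6.37 and 6.65 in naive arrays and at 7.36, 7.34, 6.31, 6.50 and 7.51 in exposed arrays 1, 2, 3, 4 and 6. Arrays 1, 2 and 6 lay well above the naive range and arrays 3 and 4 within it. Iigp1 was 1.56-fold higher (0.64 ± 0.20, SE; 95% limits 0.21 to 1.07; adjusted p = 0.163), and without exposed array 3 it was 0.82 (adjusted p = 0.0474). Without exposed array 2 it was 0.56 (adjusted p = 0.368), and Iigp1 passed in 1 of 25 alternatives. Gbp5, a GBP that promotes inflammasome activity, lay at 7.99, 8.18 and 8.35 in naive and at 8.53, 8.68, 8.57, 8.23 and 9.05 in exposed arrays. All exposed arrays but array 4 lay above the naive range. Gbp5 was 1.35-fold higher (0.44 ± 0.11, SE; 95% limits 0.19 to 0.68; adjusted p = 0.084), and without exposed array 4 it was 0.53 (adjusted p = 0.0304). Without exposed array 2 it was 0.42 (adjusted p = 0.201), and Gbp5 passed in 1 of 25 alternatives.

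Gbp3 differed by 0.33 (adjusted p = 0.261), with exposed arrays 1, 2 and 3 above all naive arrays and array 4 below them. Gbp7 differed by 0.31 (95% limits -0.04 to 0.66, adjusted p = 0.483). It was also the 1 gene of the 39 that differed between arrays titled 1 to 3 and those titled 4 to 6, being higher by 0.46 in the second set (adjusted p = 0.0367), as 3.3% of all genes did in either direction. The regulatory IRG proteins Igtp, Irgm1 and Irgm2, which keep the effector GTPases inactive on the cell's own membranes, differed by 0.18, 0.02 and 0.02. For Irgm2 naive arrays lay at 8.12, 8.32 and 8.56 and exposed arrays 1, 2, 3, 4 and 6 at 8.33, 8.75, 7.90, 8.10 and 8.74. Exposed arrays 2 and 6 were above all naive arrays, 3 and 4 below, and 1 within the range. Gbp6 was at 3.38 in naive cells, under the mark of 5.60 for dim genes (the 95th percentile of 1105 olfactory receptor genes). All other 38 genes were above that mark.

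**Figure D2:**
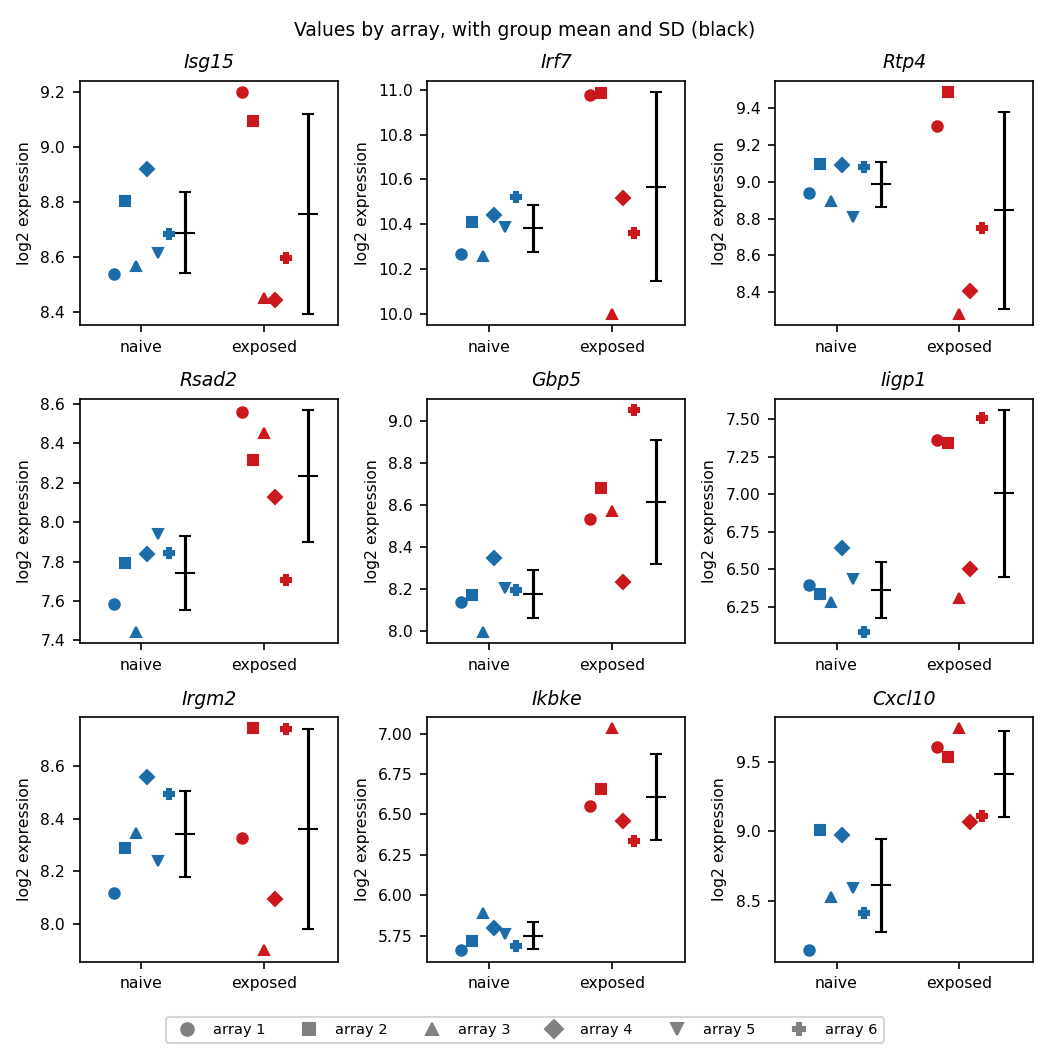
Log2 expression (y axis) of 7 interferon-stimulated genes and of Ikbke and Cxcl10 in naive (blue) and exposed (red) arrays, marked by array number, with group mean and SD in black. Isg15, Irf7 and Rtp4 show exposed arrays 1 and 2 above and array 3 below the naive arrays, Gbp5 and Iigp1 have exposed array 6 highest, and Ikbke and Cxcl10 have all exposed above all naive arrays.

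For most of these genes the exposed arrays lay farther apart than the naive ones. Parp14 had an SD of 0.02 in naive and 0.15 in exposed arrays, and Xaf1 of 0.09 and 0.43. Zbp1 had 0.10 and 0.48, Rtp4 0.12 and 0.54, and Irf7 0.10 and 0.42. The exposed SD was above the naive SD for 34 of 39 genes, where it was for 52.3% of all genes, and more than 2 times the naive SD for 18 of 39, where it was for 14.2% of all genes. The median ratio of exposed to naive SD was 1.84, beside 1.03 over all genes and 1.08 over genes above the dim mark. The 5 exceptions, with an exposed SD no larger than the naive one, were Mx2, Phf11d, Ifi35, Usp18 and Gbp7. A wider spread of exposed arrays was found on other lists too: the median ratio was 1.64 over the 96 pathway genes measured, 1.87 over 9 red pulp macrophage, 2.01 over 7 monocyte and 2.46 over 6 type 2 dendritic cell markers. The exposed SD was above the naive SD for 7 of 7 B cell markers as well.

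This comparison of spreads was made after the arrays had been seen. A limma fit to each array's absolute distance from its group mean called 0 of 39 genes and 0% of all genes at an adjusted p under 0.05. The smallest adjusted p among the 39 was 0.22, for Iigp1. At an unadjusted p under 0.05 there were 17 of 39 genes against 10.5% of all genes. With 6 and 5 arrays such a fit has little power: on simulated data, genes given a 4 times larger SD in the exposed group reached an unadjusted p under 0.05 in 73.5% of cases and an adjusted p under 0.05 in 0.5%, and 7.39% of unaltered genes reached the unadjusted mark.

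**Figure D3:**
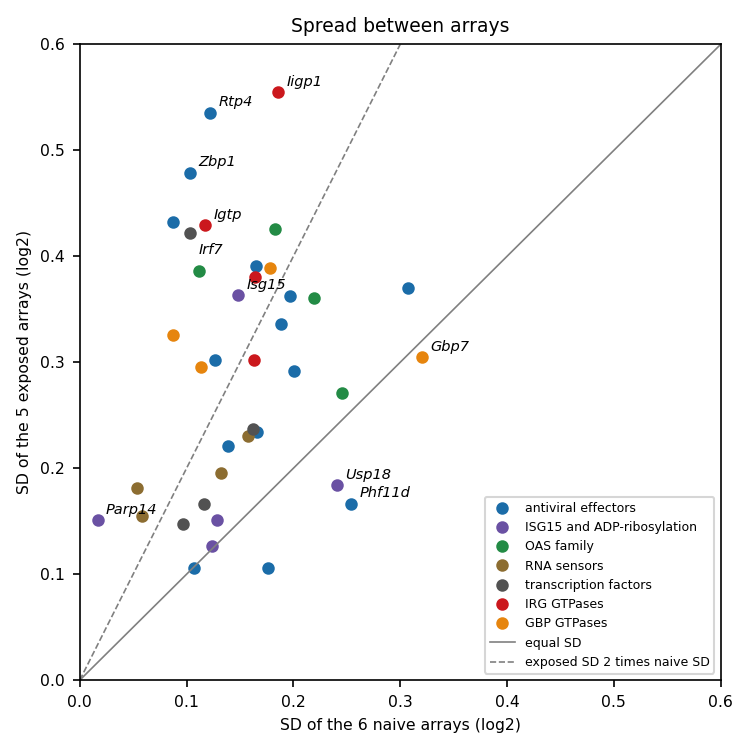
SD of log2 expression over the 5 exposed arrays (y axis) against SD over the 6 naive arrays (x axis) for each of the 39 genes, coloured by role. Of the 39 points 34 lie above the solid line of equal SD and 18 above the dashed line at 2 times the naive SD.

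The spread lay between whole arrays and was shared by many of the genes. Exposed array 2 was the highest of all 11 arrays for 16 of the 39 genes (it was for 12.0% of all genes) and exposed array 1 for 8 (12.0% of all genes). Exposed array 3 was the lowest for 16 (8.73% of all genes) and exposed array 4 for 8 (7.65%). Counted against the naive range, exposed array 1 lay above all naive arrays for 19 genes and below for 2, and exposed array 2 above for 25 and below for 2. Exposed array 3 lay above for 3 and below for 22, and exposed array 4 above for 2 and below for 15. Over all genes the shares above the naive range were 14.3 to 21.6% and those below 13.9 to 16.6% in the 5 exposed arrays.

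**Figure D4:**
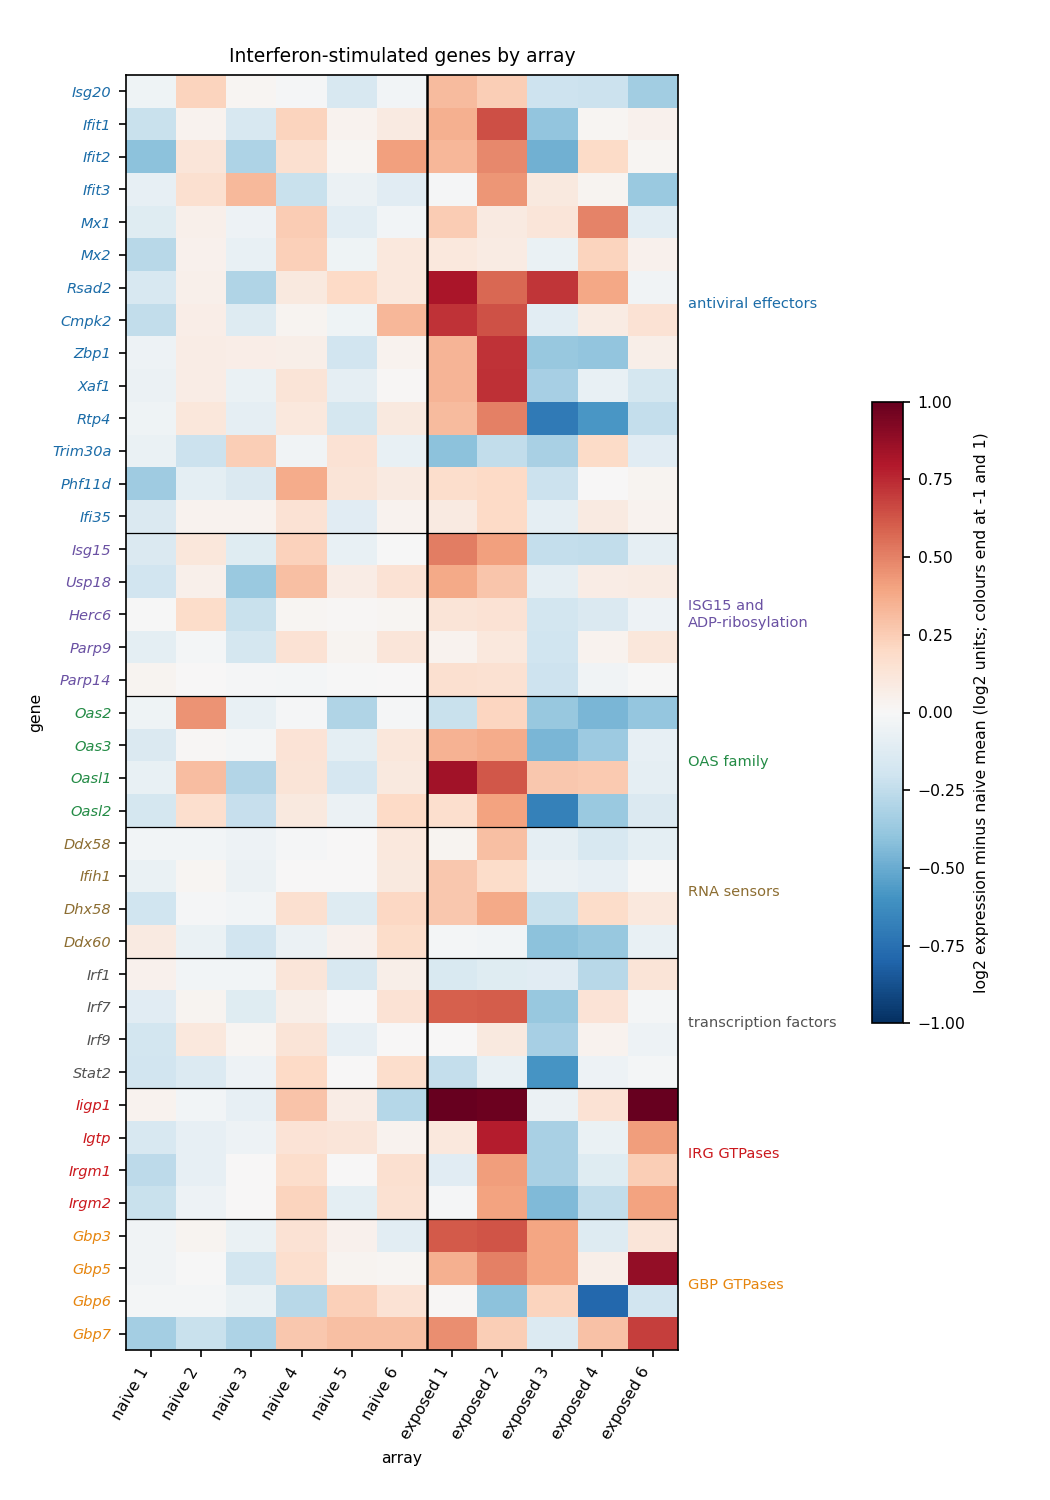
Log2 expression minus the naive mean (colour) for each of the 39 genes (rows, by role) in each of the 11 arrays (columns, naive left of the black line). Exposed arrays 1 and 2 are mostly red and exposed array 3 mostly blue. Exposed array 4 has rows of both colours, and exposed array 6 is red mainly in the GTPase rows.

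The GTPases did not follow the other genes in every array. The mean over the 31 genes other than IRG and GBP GTPases was 8.61 ± 0.10 (SD, n = 6) in naive arrays, with a range of 8.49 to 8.72. In exposed arrays 1, 2, 3, 4 and 6 it was 8.83, 8.92, 8.40, 8.57 and 8.56. Arrays 1 and 2 were thus above the naive range, array 3 below it, and arrays 4 and 6 inside. The mean over the 8 GTPases was 7.02 ± 0.11 (SD, n = 6; range 6.89 to 7.16) in naive and 7.33, 7.47, 6.99, 6.92 and 7.49 in the exposed arrays in the same order. Here exposed array 6 was the highest of all, and arrays 1 and 2 were above the naive range too. Exposed array 6 lay above all naive arrays for 6 of 8 GTPases (Iigp1, Igtp, Irgm1, Irgm2, Gbp5 and Gbp7). Among the 31 other genes it did so for 1 (Irf1), where it did for 18.1% of all genes. It lay below all naive arrays for 6 of the 31, where it did for 15.3% of all genes. The 8 GTPases leave out the 5 further GBPs of the pathway lists, all with negative differences. The difference between the GTPases and the other genes was not tested.

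**Figure D5:**
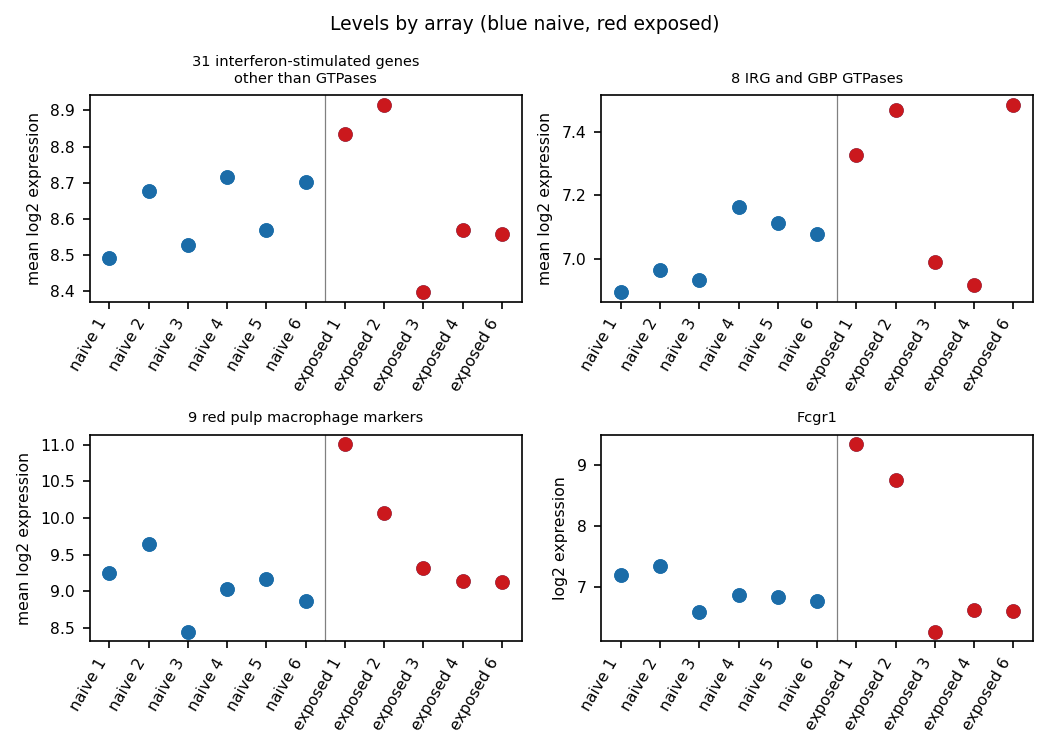
Mean log2 expression by array (x axis) of the 31 interferon-stimulated genes other than IRG and GBP GTPases, of the 8 GTPases and of 9 red pulp macrophage markers, and the log2 level of Fcgr1, in naive (blue) and exposed (red) arrays. Exposed arrays 1 and 2 are above all naive arrays in all 4 panels, and exposed array 6 is above them in the GTPase panel alone.

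In a limma fit with group and number set, 3.3% of all genes differed between arrays titled 1 to 3 and those titled 4 to 6 (adjusted p under 0.05). The labels give no reason for this, and the difference was not tested inside each group. Within titles 1 to 3 the median difference over the 39 genes was 0.14 with 32 positive, and within titles 4 to 6 it was -0.05 with 12 positive. With the number set as a block, 0 of 39 genes passed, with a smallest adjusted p of 0.0563 for Gbp5, where 2.78% of all genes passed. The interaction of group and number set passed for 0 of 39 genes and 0% of all genes. It reached an unadjusted p under 0.05 for 4 of 39 (Rsad2, Gbp3, Phf11d and Usp18), against 4.25% of all genes. The wide spread was found inside the first set, since exposed arrays 1 and 2, the highest, and exposed array 3, the lowest, all belong to it. The exposed SD exceeded the naive SD for 31 of 39 genes within titles 1 to 3 (52.8% of all genes) and for 23 of 39 within titles 4 to 6 (42.3% of all genes), where the exposed group has 2 arrays.

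Means over some marker lists of other cell types were highest in the same exposed arrays, 1 and 2. The 9 markers of red pulp macrophages, among them Vcam1, Mertk and C1qa, averaged 8.45 to 9.65 in naive arrays and 11.01, 10.07, 9.32, 9.14 and 9.13 in exposed arrays 1, 2, 3, 4 and 6. The highest of all 11 were exposed arrays 1 and 2. Of these 9 markers 8 had a positive difference and 1 a negative one, Adgre1 (-0.18). Its exposed array 2, at 10.22, lay inside the naive range of 10.14 to 10.73. The 7 monocyte markers averaged 8.8 to 9.2 in naive and 9.8, 9.6, 8.9, 9.0 and 8.9 in exposed arrays, again highest in 1 and 2. Among these Fcgr1, a high-affinity IgG receptor of monocytes and macrophages that interferon also induces, lay at 6.59, 6.84 and 7.35 in naive and at 9.33, 8.74, 6.26, 6.61 and 6.60 in exposed arrays. Csf1r, Ly6c2 and Ace were highest in exposed arrays 1 and 2 too, but not all monocyte markers were. Ccr2 was lowest of all 11 arrays in exposed array 1 (7.24) and highest in exposed array 4 (7.94). Nr4a1 lay inside the naive range in exposed array 2 (12.70). The 8 measured plasmacytoid dendritic cell markers averaged 7.6 to 8.0 in naive and 8.1, 8.2, 8.0, 7.8 and 7.8 in exposed arrays, but Siglech, a defining one, differed by -0.10, with arrays 1 and 2 at 7.26 and 7.10 inside the naive range. The part of these cells in the levels of the interferon-stimulated genes was not tested.

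With exposed arrays 1 and 2 left out together, an alternative chosen after the data had been seen, 0 of 39 genes passed. The median difference was then -0.08 with 13 positive. The exposed SD still exceeded the naive SD for 27 of 39 genes (42.8% of all genes) and was more than 2 times larger for 11 of 39 (11.7% of all genes). Rsad2 was then higher by 0.36 (adjusted p = 0.445), Iigp1 by 0.41 (adjusted p = 0.593) and Gbp5 by 0.44 (adjusted p = 0.252).

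The mean over the NK cell markers moved partly with that of the GTPases. The 6 NK markers averaged 5.62 to 5.79 in naive and 5.77, 6.00, 5.78, 5.77 and 5.96 in exposed arrays 1, 2, 3, 4 and 6, and arrays 2 and 6 were highest in both these markers and the GTPases. Their receptor gene Ncr1 lay at 5.46, 5.72 and 6.06 in naive and at 6.18, 6.21, 6.18, 6.01 and 6.31 in exposed arrays, all but array 4 above every naive array, and rose by 0.46 (adjusted p = 0.0289). Of the 6 NK markers 4 had a positive and 2 a negative difference (Gzma -0.07 and Eomes -0.09). The part of NK cells was not tested, and 3 of the 6 NK markers, Gzma and Eomes among them, lay below the dim mark. Of the other lists, the 6 T cell markers averaged 6.43 in naive and 6.45 in exposed cells, with 3 differences positive and 3 negative, and Cd3e at 5.47 and 5.72, close to the dim mark. Of these 6 markers only 2 lay above that mark, Cd8b1 and Cd4, with Cd4 at 11.45 and 10.97. The 8 neutrophil markers averaged 4.77 and 4.78, with 4 positive and 4 negative, and S100a8 at 3.23 and 3.33, under the dim mark. B cells had Cd79a at 7.66 and 8.02 and a list mean of 7.16 and 7.16. Of the 7 measured B cell markers 4 had a positive and 3 a negative difference (Blk -0.35, Cr2 -0.34 and Ms4a1 -0.21). For monocytes Ly6c2 lay at 8.24 and 8.57. Itgax, which encodes the sorted CD11c, was high on both sides, at 12.11 and 11.98.

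Of 70 measured marker genes on 11 lists 2 rose and 2 fell, where 0.879% of all genes rose and 0.546% fell. Beside Ncr1, the monocyte receptor gene Cx3cr1 rose by 0.46 (adjusted p = 0.00866), from 7.56, 7.70 and 7.92 in naive to 8.08, 8.32, 8.10, 8.26 and 8.16 in exposed arrays 1, 2, 3, 4 and 6. The lectin gene Cd209a, a marker of type 2 dendritic cells, lay at 11.08, 11.25 and 11.43 and at 10.37, 10.53, 9.76, 9.97 and 10.50, a difference of -1.02 (adjusted p = 0.00345). Clec4a4, another marker of these cells, lay at 10.87, 10.97 and 11.08 and at 10.24, 10.58, 10.57, 10.45 and 10.83, a difference of -0.43 (adjusted p = 0.025). The groups did not overlap for Cx3cr1, Cd209a and Clec4a4, where 2.29% of all genes had the groups fully apart. Nor did they overlap for the monocyte marker Csf1r, which did not pass (limma adjusted p = 0.249).

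Around these genes in the pathway, 96 of 106 listed ligands, receptors, sensors, brakes and other responsive genes were measured; 3 rose and 0 fell, where 0.879% of all genes rose and 0.546% fell. At an unadjusted p under 0.05 there were 20 of 96, where 12.2% of all genes reached that mark. Traf3 was among those not named by a probeset here. None of the 10 measured interferon ligands passed, and the largest difference was that of Ifng, which encodes interferon gamma. It lay at 4.82, 4.97 and 5.03 in naive and at 5.12, 4.89, 4.91, 5.24 and 5.23 in exposed arrays, all under the dim mark, for a difference of 0.13 (95% limits -0.04 to 0.30). Exposed arrays 1, 4 and 6 were above all naive arrays and arrays 2 and 3 within their range. None of the 12 receptors and signalling genes passed either. Irf2, a repressor that competes at the same promoter elements, had the largest difference. It lay at 10.02, 10.12 and 10.25 in naive and at 9.95, 9.89, 9.84, 10.04 and 9.92 in exposed arrays, where all but array 4 were below every naive array. The difference was -0.20 (adjusted p = 0.108), and its adjusted p was 0.0383 with the number set blocked (-0.18).

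The 3 genes that rose were Ikbke, Socs3 and Cxcl10, and for each of them the lowest exposed array exceeded the highest naive one. Ikbke, a kinase that activates Irf3 and Irf7, was at 5.66, 5.74 and 5.89 in naive and at 6.55, 6.66, 7.03, 6.46 and 6.33 in exposed arrays 1, 2, 3, 4 and 6. It was 1.81-fold higher (0.86 ± 0.10, SE; adjusted p = 0.00305). Socs3, an inhibitor of Jak kinases and the 1 of 7 brakes that rose, lay at 6.88, 7.21 and 7.27 in naive and at 7.99, 8.55, 8.07, 7.79 and 7.51 in exposed arrays. It was 1.78-fold higher (0.83 ± 0.14, SE; adjusted p = 0.016). Exposed array 3, the lowest array for 16 of the 39 interferon-stimulated genes, was the highest for Ikbke. Cxcl10, a chemokine that attracts T and NK cells and the 1 of 56 other responsive genes that rose, lay at 8.14, 8.56 and 9.01 in naive and at 9.61, 9.54, 9.74, 9.07 and 9.11 in exposed arrays. It was 1.74-fold higher (0.80 ± 0.16, SE; adjusted p = 0.03). The call for Cxcl10 was lost when any of naive arrays 1, 3, 5 or 6 or exposed arrays 1, 2 or 3 was left out, at adjusted p values of 0.0583 to 0.0896. Those of Ikbke and Socs3 held with each array left out in turn.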

How the data were processed

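RNA was copied and labelled with biotin by an Affymetrix whole-transcript kit, per the labels' protocols, for 1-colour arrays. The deposited values are log2 expression per probeset; the authors used RMA, per the submitters' processing notes, and its version and the genome build are not given in the sources used here. Of 41801 probesets, 7329 were blank on all arrays. The probe table named 1 gene for 23521 probesets, and the brightest per gene gave 22180 genes. Differences were fitted with limma 3.58.1 (lmFit, eBayes with trend) in R 4.3.3 and adjusted by Benjamini-Hochberg over all genes. SD is between arrays and SE is limma's. No depth applies to arrays, whose number limits the precision.

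All 39 measured genes are accounted for. Values of every exposed array, with the lowest, median and highest naive array, are given for the gene with the largest difference in each role group, for pathway genes that passed or, where none passed, led their list, and for marker genes that passed. Irf7, Isg15, Rtp4, Zbp1, Xaf1, Parp14, Oas2, Irgm2 and Fcgr1 were chosen after their values were seen. The genes and lists were chosen with earlier results of these data known. On simulated data of 22180 genes in this design, limma found 99% of 100 genes altered 2-fold and 86% of 100 altered by 0.5 (log2), and 7 of its 192 calls were false. The altered genes were drawn from all genes above the dim mark, with the same SD in both groups. Median SDs there were 0.11 in naive and 0.12 in exposed arrays, against 0.15 and 0.30 for the 39 genes. These shares therefore do not give the power for the 39 genes. Alternatives covered scaling, a filter on dim genes, probeset means, blocks, number sets, fit options and leaving out arrays. ISRE and GAS letters were searched in RefSeq promoter windows.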

Additional observations from a re-analysis of the deposited data

Results flagged for a closer look

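Among 144 groups checked for a single array far from the rest (the 39 genes, 7 other named genes and 26 means over lists, each in naive and in exposed arrays), 4 had one; chance flags about 1 in 20 groups. Parp9 was lowest in exposed array 3, at 9.01, with the next array at 9.24. Ddx58 was highest in naive array 6, at 8.90, with the next at 8.80. The mean of the B cell markers was highest in naive array 1, at 7.33, with the next at 7.16. The erythroid list, of which Slc4a1 alone was measured, was highest in exposed array 1, at 6.97, with the next at 6.39.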

How the results depend on the processing

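Over 25 alternatives and the 39 genes there were 974 values: 890 kept their sign and side of the threshold, 4 came to pass it, 0 passed with the opposite sign, and 80 turned sign below the threshold. The count of interferon-stimulated genes that changed was 0 to 1 with each array left out, and 1 with a replicate block by title number, where Oas2 was -0.31 (adjusted p = 0.0314). With the number of the other label field as the replicate block it was 0. Same-numbered arrays share a number only: their correlations after removing group means lay between 0.0880 and 0.231, and 2 of 5 exposed arrays correlated best with their own number. With either replicate block Cxcl10 no longer passed (adjusted p = 0.0601 and 0.0895), and the count of changed pathway genes was 2. It was 0 within titles 1 to 3 and 0 within titles 4 to 6, where 11 and 5 of all genes passed. Over all genes 316 changed; 617 did with the number set as a block, 182 with the block of the other label field, 99 without exposed arrays 1 and 2, and 104 to 395 with each array left out (lowest without exposed array 2). A shift of each array to a common 75th percentile moved the median of all genes to -0.03 and turned the split from 195 higher and 121 lower (61.7% higher) to 168 and 223 (43.0%). The median SD ratio lay between 1.69 and 2.00 with each array left out and between 1.76 and 2.14 under other scalings.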

Other observations

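Other interferon-responsive genes, chosen here after their values were seen, had differences of both signs without passing the test. Ifi204, a DNA-binding protein of the HIN-200 family, lay at 5.59, 6.00 and 6.17 (lowest, median and highest) in naive arrays and at 7.84, 7.78, 5.98, 6.61 and 6.36 in exposed arrays 1, 2, 3, 4 and 6, a difference of 0.96 (limma adjusted p = 0.155). Exposed arrays 1 and 2 were highest, as for Irf7 and Isg15. For the RNA sensor Tlr7 the difference was -0.35 (adjusted p = 0.181), and 4 of the 5 exposed arrays were lower than any naive one.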
